A study of Mus musculus with 14 samples.

Results

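The arrays carried probe sets for 50 small nucleolar RNA (snoRNA) genes, chosen as every probe set whose single gene symbol starts with Snora or Snord followed by a digit, out of 19752 genes with a probe set of 1 symbol. Where a gene had more than 1 probe set the brightest was taken, and no filter on brightness was applied. Of the 50 genes, 30 were C/D box snoRNAs (Snord) and 20 were H/ACA box snoRNAs (Snora). They were read by 53 probe sets, and 19 more probe sets that named a snoRNA together with other genes were left out.

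The study cultured CD4+ T cells with interferon alpha under blockade of Janus kinases (JAKs), the enzymes that pass the signal of the interferon receptor to STAT factors, and read total RNA on Affymetrix Mouse Gene 1.0 ST arrays. The cells came from the spleens of male C57BL/6 mice aged 6 weeks, were separated by negative selection and activated for 48 h with CD3/28 beads. Every culture described here then received IFNa at 100 U/ml together with 1 JAK inhibitor at its IC80, for 8 h or for 2 h. The inhibitors are named by the kinase in their labels, with the code of the sample title: JAK1 (IFN.3404), JAK1/2 (IFN.6221), PAN, as the label gives it (IFN.6222), TYK2 (IFN.2485), JAK2 (IFN.3885), JAK3 (IFN.6226) and JAK3 (IFN.6228). Each inhibitor had 1 array per time, which made 7 arrays at 8 h and 7 at 2 h, and arrays of cells without inhibitor were not analysed here. Sample numbers in the labels name no repeated cultures, so no p-value below rests on spread between cultures. Those of the time and single-inhibitor comparisons rest on how far the time difference varied between inhibitors, and those of the class comparison on the spread between inhibitors of a class. The T cell genes Cd3e and Cd4 averaged 12.37 and 11.82 on the log2 intensity scale, while the granulocyte gene S100a8 and the NK cell gene Ncr1 averaged 4.31 and 4.47. Other markers were brighter, with the B cell genes Cd79a, Cd79b and Ms4a1 at 8.04, 9.57 and 8.57. The CD8 genes Cd8a and Cd8b1 averaged 6.81 and 8.99, and the granulocyte gene S100a9 averaged 6.01. Of the macrophage genes, Lyz2 and Cd68 averaged 7.12 and 7.43, and Csf1r and Adgre1 5.49 and 4.72.

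snoRNAs are short RNAs of the nucleolus that pair with ribosomal RNA and guide its modification. C/D box snoRNAs direct ribose methylation by fibrillarin, H/ACA box snoRNAs direct pseudouridylation by dyskerin, and a few, such as U3, U8, U14 and U17, act in cleavage of the ribosomal RNA precursor. Most mammalian snoRNAs are not transcribed alone but are trimmed from the introns of host genes, many of which encode ribosomal proteins or are small nucleolar RNA host genes (Snhg) without a conserved protein. Activated T cells that enter growth make ribosomes at a high rate, which is why the levels of this machinery are of interest in these cells.

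By RefSeq positions on GRCm38.p6, 49 of the 50 lay inside another gene, and Snord118, which encodes U8, lay in none. The 49 belonged to 40 hosts, of which 31 were protein-coding and 9 were long non-coding RNA genes, and 16 ribosomal protein genes held 20 of them. The reference gave no strand for the snoRNAs, so a host is here a gene that spans the member whatever its strand. In total, 9 hosts held 2 members each. Transcription of many ribosomal protein and Snhg genes is known to start within a run of pyrimidines, the 5′ terminal oligopyrimidine (TOP) motif. A run of at least 5 C or T bases lay over the annotated start of 9 of the 31 hosts with a RefSeq promoter (29.0%), against 9.95% of 27018 promoters. Another motif, CACGTG, the E-box bound by MYC and its relatives, occurred in the 300-base window of 6 of the 31 (19.4%), against 7.24% of all promoters. CACGTG reads alike on both strands and can share only its first base with a pyrimidine run, which was sought on the strand of the gene. Promoters of the 3 hosts that held 2 members and a run over the start are printed, since their paired members are compared below. Each shows 60 bases before the RefSeq start and 10 from it, on the strand of the gene (+ in all 3) in GRCm38.p6, with the pyrimidine run in capitals.
2410006H16Rik (host of Snord49a and Snord49b, chr11:62602817-62602886): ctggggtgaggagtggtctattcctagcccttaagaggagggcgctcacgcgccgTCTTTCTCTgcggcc
Rack1 (host of Snord95 and Snord96a, chr11:48800300-48800369): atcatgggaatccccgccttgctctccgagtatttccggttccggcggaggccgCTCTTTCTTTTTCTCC
Snhg12 (host of Snora16a and Snora44, chr4:132308618-132308687): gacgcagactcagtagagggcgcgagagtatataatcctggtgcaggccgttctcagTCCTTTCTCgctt

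The snoRNA probe sets were bright for the array. Their mean log2 intensity over the 14 arrays had a median of 8.87, against 6.81 for all genes, and 39 of the 50 were at or above the all-gene median. The C/D members spanned 4.36 (Snord58b) to 12.80 (Snord57) around a median of 8.72, and the H/ACA members spanned 6.45 (Snora2b) to 13.27 (Snora52) around a median of 9.05. Brightness between probe sets depends on their probes, so these levels do not rank the RNAs by abundance. Snora21, Snora3 and Snord58b each had a second probe set, which followed the first with a correlation of 0.997 to 0.999 over the 14 arrays. RefSeq lengths ran from 53 to 205 bases, with 27 members under 100 bases.

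The first comparison asks how the members differed between 8 h and 2 h of culture across the 7 inhibitors. In a limma fit of inhibitor and time over all 19752 genes, with Benjamini-Hochberg adjustment over all of them and a threshold of 0.05, 27 members fell at 8 h and 1, Snora74a, rose. Of all genes 16.5% were called lower and 13.1% higher, and among genes at or above the 40th percentile of brightness (6.27, reached by 45 members) 28.0% were called lower. The median change over the 50 members was -0.28 log2 units, against 0.05 over all genes. The C/D members had 18 of 30 lower and 0 higher, with a median of -0.31. Of these 30, 22 had an unadjusted p under 0.05, as did 7586 of all 19752 genes. The H/ACA members had 9 of 20 lower and 1 higher, with a median of -0.17. Without the 8 h array of the JAK1 inhibitor, which stood apart from the rest as described below, 31 members were lower and 1 higher, against 15.8% and 14.5% of all genes. A total of 19 members were lower at 8 h under every one of the 7 inhibitors, as were 13.9% of all genes, and 11 had all 8 h arrays below all 2 h arrays, as did 9.60% of all genes. Bulk arrays cannot tell fewer cells of a type from less RNA per cell.

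**Figure D1:**
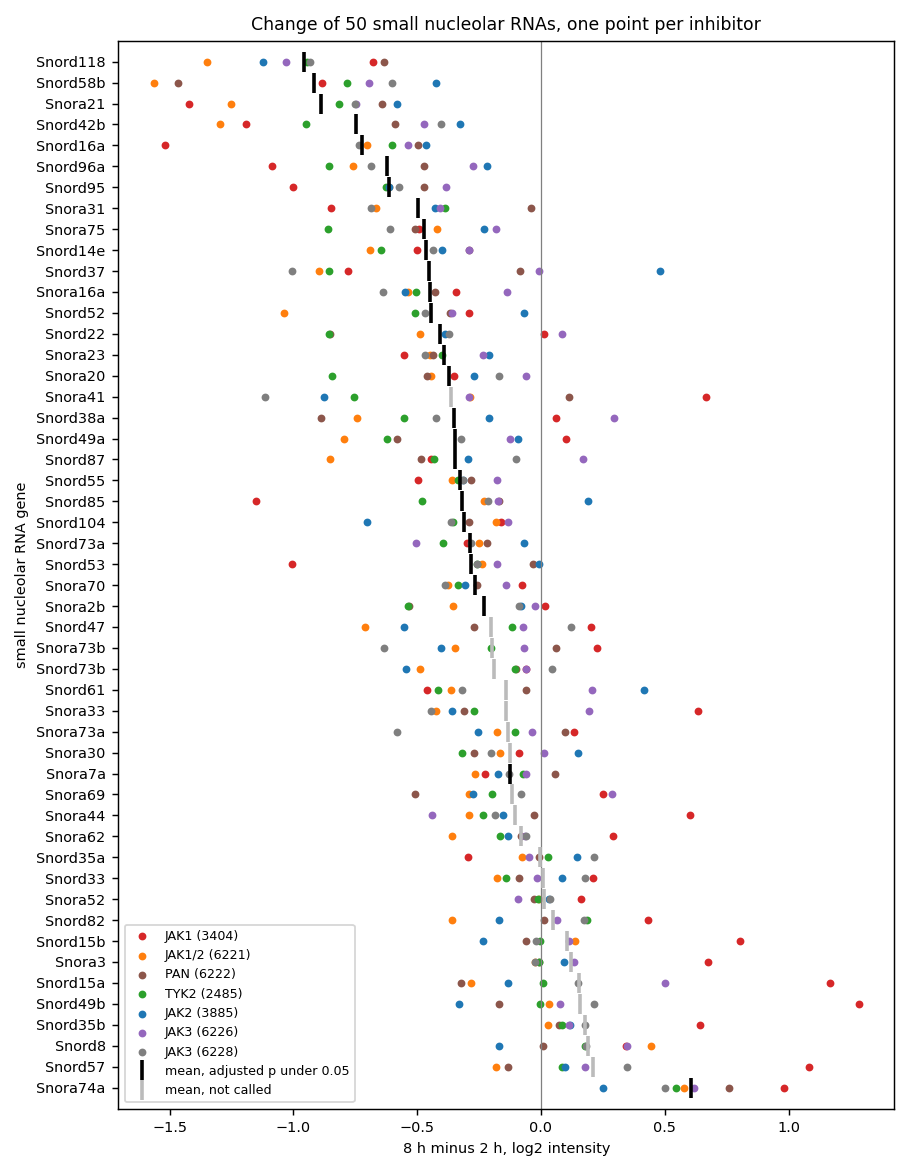
Change of each of the 50 snoRNAs between 8 h and 2 h (x axis, log2 intensity, 8 h minus 2 h), with 1 point per inhibitor and a bar for the mean, black where the limma fit called it. Members run from Snord118, at a mean of -0.96, to Snora74a, at 0.61, and the red points of the JAK1 inhibitor lie at the edge of the spread for many members.

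The largest fall was that of Snord118 (U8), a C/D RNA known to act in maturation of the large-subunit ribosomal RNAs and known to be transcribed on its own rather than from a host intron. Its lowest, median and highest log2 intensities were 8.11, 8.42 and 8.70 at 8 h, against 9.31, 9.38 and 9.55 at 2 h. The 2 sets of arrays did not overlap, and the lowest 8 h array was that of the JAK1/2 inhibitor. The fitted change was -0.96 log2 units, a 1.94-fold fall (SE 0.08, limma adjusted p = 1.31e-07). U3, the snoRNA of the small-subunit processome, is listed as Rnu3a and is no member by its symbol. Rnu3a averaged 8.28 at 8 h and 8.55 at 2 h, a difference of -0.27 that was not called (limma adjusted p = 0.223).

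After Snord118, 6 more members fell by over 1.5-fold. Snora21, an H/ACA guide in an intron of the ribosomal protein gene Rpl23, had 8.05, 8.46 and 8.63 at 8 h, against 9.18, 9.27 and 9.54 at 2 h. Its arrays did not overlap between times, and the JAK1 array was the highest at 2 h and the second lowest at 8 h. The change was -0.89 (SE 0.09, limma adjusted p = 1.68e-06). Snord42b, in Rpl23a, had 7.58, 8.21 and 8.41 at 8 h, against 8.65, 8.87 and 8.94 at 2 h, a change of -0.75 (SE 0.11). Snord16a, in Rpl4, had 8.74, 9.30 and 9.58 at 8 h, against 9.81, 9.98 and 10.26 at 2 h, a change of -0.72 (SE 0.10). For both, every 8 h array lay below every 2 h array.

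Snord96a and Snord95 are C/D guides from the same host, Rack1, which encodes a protein of the small ribosomal subunit. Snord96a had 5.47, 6.25 and 6.50 at 8 h, against 6.55, 6.72 and 6.99 at 2 h, a change of -0.62 (SE 0.09). Snord95 had 7.50, 7.99 and 8.07 at 8 h, against 8.35, 8.61 and 8.65 at 2 h, a change of -0.61 (SE 0.07). Neither overlapped between times, and the JAK1 array was the lowest of the 8 h arrays for both. Snord58b, in Rpl17, was the dimmest member at a mean of 4.36. It had 3.14, 3.89 and 4.39 at 8 h, against 4.32, 4.78 and 5.30 at 2 h, so its arrays overlapped, and its change was -0.92 (SE 0.12). Snora31, in Tpt1, had 7.64, 7.97 and 8.22 at 8 h, against 8.26, 8.37 and 8.65 at 2 h, with a change of -0.50 (SE 0.08) and no overlap. The limma adjusted p of these members ran from 5.94e-06 for Snord95 to 2.16e-04 for Snora31.

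**Figure D2:**
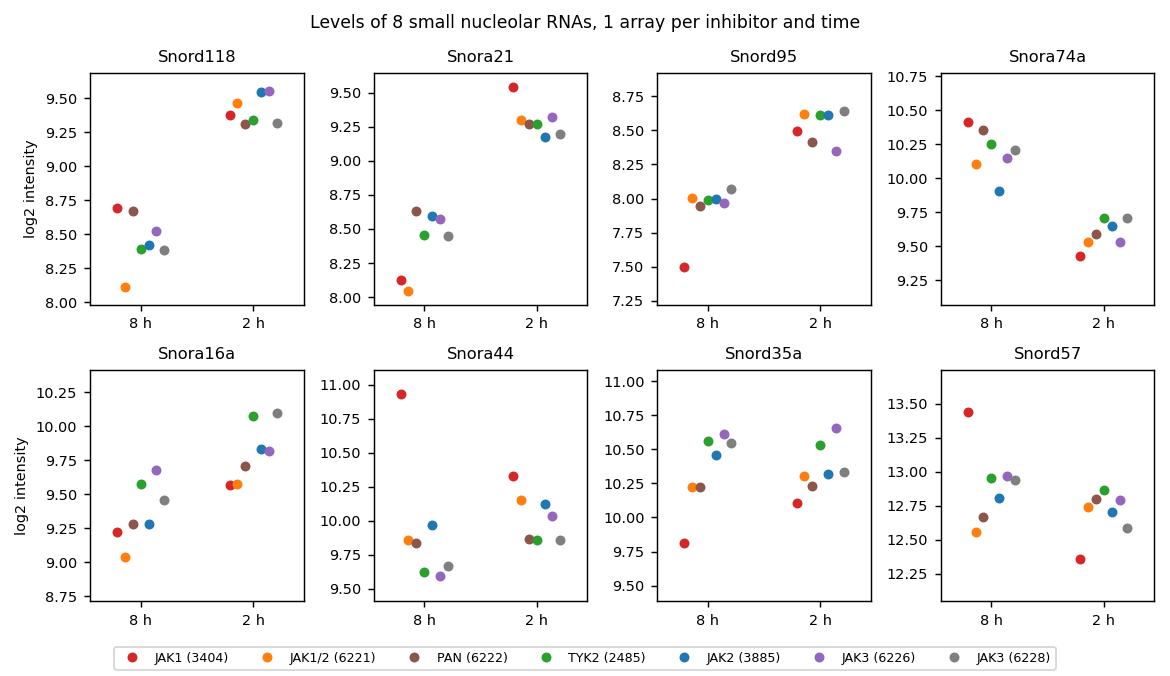
Log2 intensity (y axis) of 8 snoRNAs at 8 h and 2 h, with 1 point per array and colours for the inhibitor. Snord118, Snora21, Snord95 and Snora74a do not overlap between the times, while in the Snora44 panel the 8 h JAK1 array lies at 10.93 and the 2 h JAK1 array at 10.33, each above the other 6 of its time.

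Snora74a, an H/ACA member lying within Snhg4, was the single member that rose. It had 9.90, 10.21 and 10.41 at 8 h, against 9.43, 9.59 and 9.71 at 2 h. No 8 h array was as low as any 2 h array, and the difference was positive under all 7 inhibitors. The change was 0.61 log2 units, or 1.52-fold (SE 0.07, limma adjusted p = 6.14e-06), with 5.55% of all genes wholly above their 2 h arrays at 8 h. In all, 2 of the 50 members were higher at 8 h under all 7 inhibitors, as were 11.1% of all genes, and Snora74a was the 1 of them that was called.

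The members with a known part in cleavage of the ribosomal RNA precursor did not move alike. Snord14e, a U14 gene in an intron of the heat-shock gene Hspa8, had 8.32, 8.74 and 8.87 at 8 h, against 9.01, 9.13 and 9.30 at 2 h. It fell without overlap, by 0.47 log2 units (SE 0.06, limma adjusted p = 3.07e-05). Snora73a and Snora73b, both U17 genes within Snhg3, had differences of -0.13 and -0.20 that were not called (limma adjusted p = 0.175 and 0.0806). Snora73a had 10.84, 10.98 and 11.41 at 8 h, against 11.01, 11.10 and 11.42 at 2 h, and its highest 8 h array was that of the JAK1 inhibitor. With that array left out Snora73a and Snora73b were called lower at -0.18 and -0.27 (limma adjusted p = 0.0443 and 0.00553).

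Snord33 and Snord35a, C/D guides in introns of Rpl13a that have been studied in lipotoxic stress, showed means within 0.01 of each other at the 2 times. Snord33 had 8.58, 8.87 and 9.12 at 8 h, against 8.38, 8.88 and 9.25 at 2 h. Snord35a had 9.81, 10.46 and 10.61 at 8 h, against 10.11, 10.32 and 10.66 at 2 h. The arrays of the 2 times overlapped for both. Neither was called (limma adjusted p = 0.946 and 0.956), with standard errors of 0.06. The brightest member of each class was not called either. Snora52, in Rplp2, averaged 13.27 at 8 h and 13.26 at 2 h, and Snord57, in Nop56, averaged 12.90 at 8 h and 12.69 at 2 h. Of the other bright members, Snord104 fell by 0.31 log2 units (SE 0.06) and Snora7a by 0.12 (SE 0.05) (limma adjusted p = 0.049).

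The share of members that fell differed with brightness and host, given here as counts without a test. Of the 25 dimmer members 18 fell, with a median change of -0.35, and of the 25 brighter members 9 fell and 1 rose, with a median of -0.12. Of the 20 members in ribosomal protein hosts 9 fell, with a median of -0.13, and of the 29 in other hosts 17 fell and 1 rose, with a median of -0.32. The size of the shift also varied with the inhibitor. The JAK1/2 inhibitor had 45 of 50 members lower at 8 h and a median change of -0.36, where 40.2% of all genes were lower. TYK2 had 43 and -0.35 (41.1% of all genes), and PAN had 42 and -0.26 (46.3%). The JAK2 inhibitor had 39 members lower and a median of -0.22 (52.3% of all genes). The JAK3 inhibitor IFN.6228 had 38 and -0.30 (42.6%). Fewer were lower under the JAK3 inhibitor IFN.6226, at 34 with a median of -0.07 (49.9% of all genes). Under the JAK1 inhibitor 27 were lower, with a median of -0.08 (47.5% of all genes).

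Protein genes of the snoRNA pathway were set beside the members. All 4 measured C/D core proteins fell at 8 h, with Nop58 at -0.98 (8.67 at 8 h and 9.65 at 2 h), Nop56 at -0.65, Snu13 at -0.57 and the methyltransferase Fbl at -0.49. All 4 H/ACA core proteins fell as well, with Gar1 at -0.88, the pseudouridine synthase Dkc1 at -0.71, Nhp2 at -0.61 and Nop10 at -0.44. Of 11 assembly factors 9 fell, among them the chaperone Nolc1 at -1.17 and the H/ACA assembly factor Naf1 at -1.13, while Pih1d1 rose by 0.24 and Tcof1 was at 0.08 without a call. Of 16 genes of ribosomal RNA transcription and the U3 processome 14 fell, with a median of -0.59 and the largest fall in the polymerase I subunit Polr1b at -1.31. Of 9 genes of Cajal bodies and 3′ trimming 6 fell, with a median of -0.23. Of 12 other small RNAs only Scarna8 fell (-0.28, limma adjusted p = 0.0188), and the median was 0.02. The 12 included Rmrp, Rn7sk and Terc, but also the snoRNA U3 (Rnu3a) and Scarna8, Scarna13 and Scarna17. Among 297 microRNA probe sets 16 rose and 12 fell, with a median of 0.06.

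Markers of other cells also differed between the times. All 3 measured B cell genes rose at 8 h, with a summed intensity of 1486 to 1813 at 8 h, against 1132 to 1307 at 2 h. Of 6 CD4 T cell genes 5 rose, with a sum of 26495 to 27777 at 8 h, against 21041 to 23390 at 2 h. The CD8 pair had 1 of 2 higher (646 to 771 at 8 h, 501 to 563 at 2 h), and of 4 macrophage genes 1 fell (306 to 439 at 8 h, 340 to 469 at 2 h). Granulocyte (3) and NK cell (2) genes had no call. Intensities have no true 0, so absence of a marker cannot be read from them. The part of these shifts in the members' change was not tested.

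A host gene with its own probe set was available for 27 members in 24 hosts, which sets a snoRNA beside the gene that spans it. Of the 13 such members called lower, the host was called lower in 6, not called in 7 and higher in 0. The median change was -0.23 over the members and -0.04 over the hosts, and in 18 of 27 pairs the member's change lay below that of its host. Among the falls described above, Rpl23, the host of Snora21, was at -0.08 (limma adjusted p = 0.0682), and Rpl23a, the host of Snord42b, was at 0.10 (0.173). Rpl4, the host of Snord16a, was at -0.04, and Tpt1, the host of Snora31, was at 0.02. None of these 4 hosts was called, while the changes of their members ran from -0.50 (Snora31) to -0.89 (Snora21). These 4 host probe sets were bright, at mean levels of 12.37 (Rpl4) to 13.51 (Tpt1) on the log2 scale.

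The reverse order also occurred. Nop56, itself a core protein of C/D particles, fell by 0.65 (SE 0.06), while its intronic Snord57 was at 0.21 and not called. Wdr43, a factor of the small-subunit processome, fell by 0.98, while its Snord53 fell by 0.28. Without the 8 h JAK1 array Snord57 was at 0.066 and not called, and Snord53 was called at -0.16 (limma adjusted p = 0.0240). Ipo7 and Tcp1 fell by 0.59 and 0.41, and their members Snora23 and Snora20 fell by 0.39 and 0.37. Over the 27 pairs the correlation of the 2 changes was 0.09 (Pearson, across pairs that share arrays and some of which share a host), given as a description.

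**Figure D3:**
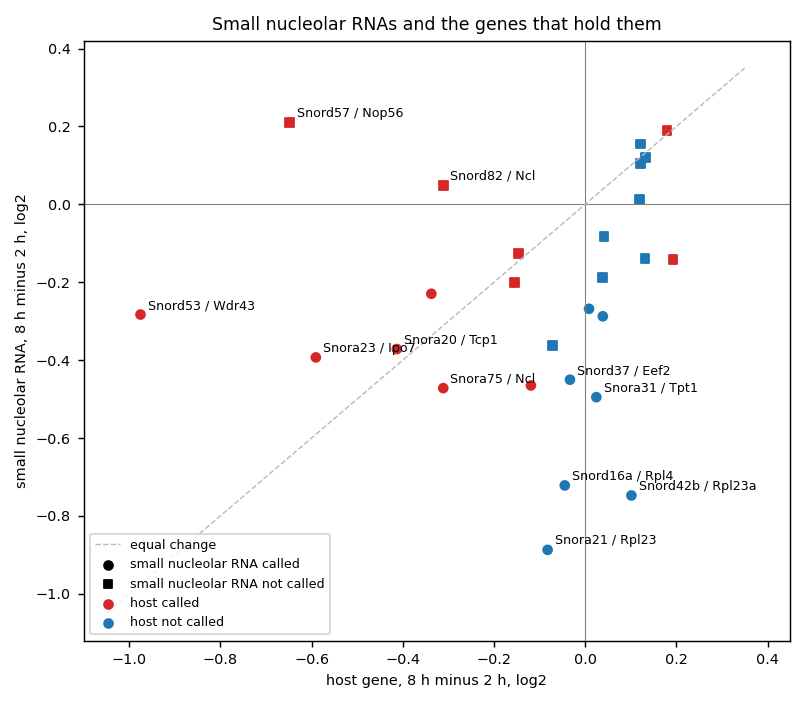
Change of 27 snoRNAs (y axis) against the change of their host genes (x axis), both as 8 h minus 2 h in log2 intensity. Snora21, Snord42b and Snord16a lie far below hosts that were not called, and Snord57 lies above Nop56, which fell by 0.65.

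Where 2 members shared a host, their changes were compared over the 7 inhibitors with an exact two-sided sign-flip permutation test. With 128 sign assignments the smallest p is 0.0156, and no pair of the 9 passed after Benjamini-Hochberg adjustment. A single pair at that smallest p adjusts to 0.141 over the 9 pairs. No pair could pass unless several reached it, so the lack of a call says little about any pair. The widest gap was in Ncl, which encodes nucleolin. Snora75 had a mean change of -0.47 ± 0.23 and Snord82 of 0.05 ± 0.26 (SD, n = 7), and Snora75 changed more negatively under all 7 inhibitors (exact permutation p = 0.0156, adjusted p = 0.141). In 2410006H16Rik, whose promoter is printed above, Snord49a changed by -0.35 ± 0.33 and Snord49b by 0.16 ± 0.53, with Snord49a the lower in 6 of 7 (exact permutation p = 0.0469, adjusted p = 0.188). In Snhg12, Snora16a changed by -0.45 ± 0.16 and Snora44 by -0.10 ± 0.34, again lower in 6 of 7 (exact permutation p = 0.0625, adjusted p = 0.188). The Rack1 pair, Snord95 and Snord96a, differed by 0.01 ± 0.21, and the Rpl13a pair, Snord33 and Snord35a, by 0.01 ± 0.22. Over the 6 inhibitors other than JAK1, Snora75 changed by -0.47 ± 0.25 and Snord82 by -0.016 ± 0.21, with Snora75 the lower in 6 of 6. Snord49a then changed by -0.42 ± 0.29 and Snord49b by -0.031 ± 0.19, and Snora16a by -0.47 ± 0.17 and Snora44 by -0.22 ± 0.14 (SD, n = 6). The first of each pair was the lower in 5 of 6. Snora44, not called over all arrays, was called lower at 8 h without the 8 h JAK1 array (-0.22, limma adjusted p = 0.00367). Members of 1 host did not always follow each other over the 14 arrays. The correlation was 0.97 for Snora73a with Snora73b, 0.91 for Snord95 with Snord96a and -0.23 for Snora16a with Snora44. The value of -0.23 includes the JAK1 arrays, on which Snora44 was the highest of its time, and its sign may depend on them. Near-identical copies such as the Snora73 pair may share target RNA on their probes, which was not tested.

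The second comparison asks whether the JAK1 inhibitor differed from the other 6 once time was taken out. In the additive limma fit 5 members were lower under it, where 2.92% of all genes were called lower, and 2 were higher, where 0.415% of all genes were called higher. The lower ones were Snora75, Snord33, Snord35a, Snord104 and Snord73a, and the higher ones were Snora44 and Snora3. The median over the 50 members was -0.12 (-0.17 for C/D and 0.05 for H/ACA), against -0.01 for all genes. Brighter genes were called more often. Among genes at or above the 40th percentile of brightness, 6.73% were called lower and 0.937% higher. In that fit 6 members were lower and 2 higher, and the median was -0.057 over its members, against -0.050 over its genes. The split of calls depended on scaling, with 4 lower and 4 higher after quantile normalization or cyclic loess, and 3 lower and 6 higher after centring on the upper quartile. That centring moved the all-gene median of this contrast to 0.11, and that of the time contrast to 0.13.

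Snora44, an H/ACA member in Snhg12, had 10.93 at 8 h under the JAK1 inhibitor, against 9.59, 9.75 and 9.97 (lowest, median, highest) under the other 6. At 2 h it had 10.33 under the JAK1 inhibitor, against 9.86, 9.95 and 10.15. The JAK1 array was the highest at both times, by a wide margin at 8 h. The fitted difference was 0.76 (SE 0.13, limma adjusted p = 0.00447). Snora3, in Rpl27a, had 11.19 under the JAK1 inhibitor at 8 h, against 10.22, 10.32 and 10.38, and 10.52 at 2 h, against 10.20, 10.27 and 10.34. It too was highest at both times, with a fitted difference of 0.57 (SE 0.10, limma adjusted p = 0.00707). With the 8 h JAK1 array left out, only the 2 h array stood for this inhibitor. Both differences stayed positive but were smaller, at 0.35 and 0.25.

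The lower members were less apart. Snord33 had 8.58 under the JAK1 inhibitor at 8 h, against 8.69, 8.97 and 9.12, and 8.38 at 2 h, against 8.79, 8.90 and 9.25. Its host partner Snord35a had 9.81 at 8 h, against 10.22, 10.51 and 10.61, and 10.11 at 2 h, against 10.23, 10.33 and 10.66. The JAK1 arrays were the lowest of their time in all 4 cases. The fitted differences were -0.48 (SE 0.09, limma adjusted p = 0.00786) and -0.46 (SE 0.08, limma adjusted p = 0.00635). Snora75 had 6.45 at 8 h, against 6.84, 6.94 and 7.17, and 6.94 at 2 h, against 7.22, 7.35 and 7.74, and its fitted difference was -0.50 (SE 0.11). Snord104 and Snord73a were at -0.39 and -0.38, with limma adjusted p of 0.0209 and 0.0421. Without the 8 h JAK1 array 4 members were lower and 0 higher, where 0.891% and 0.0810% of all genes were called. The 4 were Snord49b (-0.92), Snord33 (-0.60), Snord82 (-0.59) and Snord104 (-0.48). Only Snord33 and Snord104 were called with and without that array. Snord33 was called under all 17 alternatives run and Snord104 was not called under 8 of 17. Snord104 was at -0.30 after quantile normalization (limma adjusted p = 0.121), and its highest limma adjusted p was 0.155, after upper-quartile centring. It was also not called after loess, after rescaling of the 8 h JAK1 array, without the variance trend or without IFN.2485, IFN.6226 or IFN.6228. Snord73a was not called under 6 of the 16 alternatives that kept it, at -0.27 after upper-quartile centring (limma adjusted p = 0.224). It also lost its call without the 8 h JAK1 array or without any 1 of IFN.6222, IFN.2485, IFN.6226 and IFN.6228, and the 40th-percentile filter removed it. Snora75 was not called under 3 of 17. These were upper-quartile centring (limma adjusted p = 0.0512), without IFN.6228 (0.0706) and without the 8 h JAK1 array, where 1 array gave -0.49.

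In the same contrast 1 of 4 C/D core proteins, Nop58 (-0.61), was lower, with a median of -0.30 over the 4. Of the 4 H/ACA core proteins Gar1 (-0.57) and Nop10 (-0.39) were lower, with a median of -0.33. The assembly factors had 1 of 11 lower, the helicase Ruvbl1 (-0.40), and a median of -0.17. Genes of ribosomal RNA transcription and the U3 processome had 1 of 16 lower, Imp3 (-0.27), and a median of -0.23, and none of the 9 genes of Cajal bodies and trimming was called (median -0.13). Of 25 measured host genes 2 were lower, Gas5 (-0.52) and Rps3 (-0.37), with a median of -0.13. No gene of these lists was called higher. In this contrast 2.92% of all genes were called lower, and 6.73% of genes at or above the 40th percentile of brightness. The part of the 8 h JAK1 array in the values of these lists was not tested. Of the 12 other small RNAs, Rnu12, the U12 RNA of the minor spliceosome, was higher by 1.29 and Terc by 0.29, and Scarna17 was lower by 0.43 log2 units.

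At 8 h the array of the JAK1 inhibitor was the least like the other 6. Its upper-quartile intensity was 398, the lowest of the 14 arrays, and its mean correlation with the other 8 h arrays was 0.990, against 0.993 to 0.996 for the rest. As deposited, genes in the 2 brightest of 5 brightness classes were lower on it by 0.19 log2 units each at the median, while the dimmest class was at 0.06. Skeletal muscle genes averaged 7.07 on it, as well as 7.15 and 7.19 on the JAK1/2 arrays at 2 h and 8 h, against 6.39 to 6.70 on the other 11. The part of these differences in the members' values was not tested.

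On that array the members spread in both directions more than they moved together. The array was the highest of 7 for 18 members, where this held for 18.5% of all genes, and the lowest for 11, where this held for 31.2%. The median difference from the mean of the other 6 was -0.0069 over the members, -0.12 over C/D and 0.10 over H/ACA members, and -0.028 over all genes. The SD over the members was 0.46, against 0.28 over all genes, the widest SD over members of any array. The 18 highest were 10 H/ACA and 8 C/D members, led by Snora44 (1.17), Snora41 (0.97), Snora3 (0.89) and Snora33 (0.69). The 11 lowest were 3 H/ACA and 8 C/D members, led by Snord53 (-0.90), Snord85 (-0.82), Snord96a (-0.77) and Snord16a (-0.63). With 1 array these values have no replicate check.

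Rescaling shifted the median but left the spread. After quantile normalization the array was highest for 22 members (24.9% of all genes) and lowest for 10 (26.8% of all genes), with a median of 0.035 and an SD of 0.49. The median was 0.048 after cyclic loess, 0.20 after upper-quartile centring and -0.033 after median centring. It was 0.042 with that array alone set to the mean quantiles of the other 6. The sign of the median therefore depended on scaling. Of the 50 members, 40 kept the same sign under all 6 scalings. Snora44 was at 1.29, Snora41 at 1.01 and Snora3 at 1.02 after quantile normalization, and Snord53 was at -0.70, Snord85 at -0.88 and Snord96a at -0.83.

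**Figure D4:**
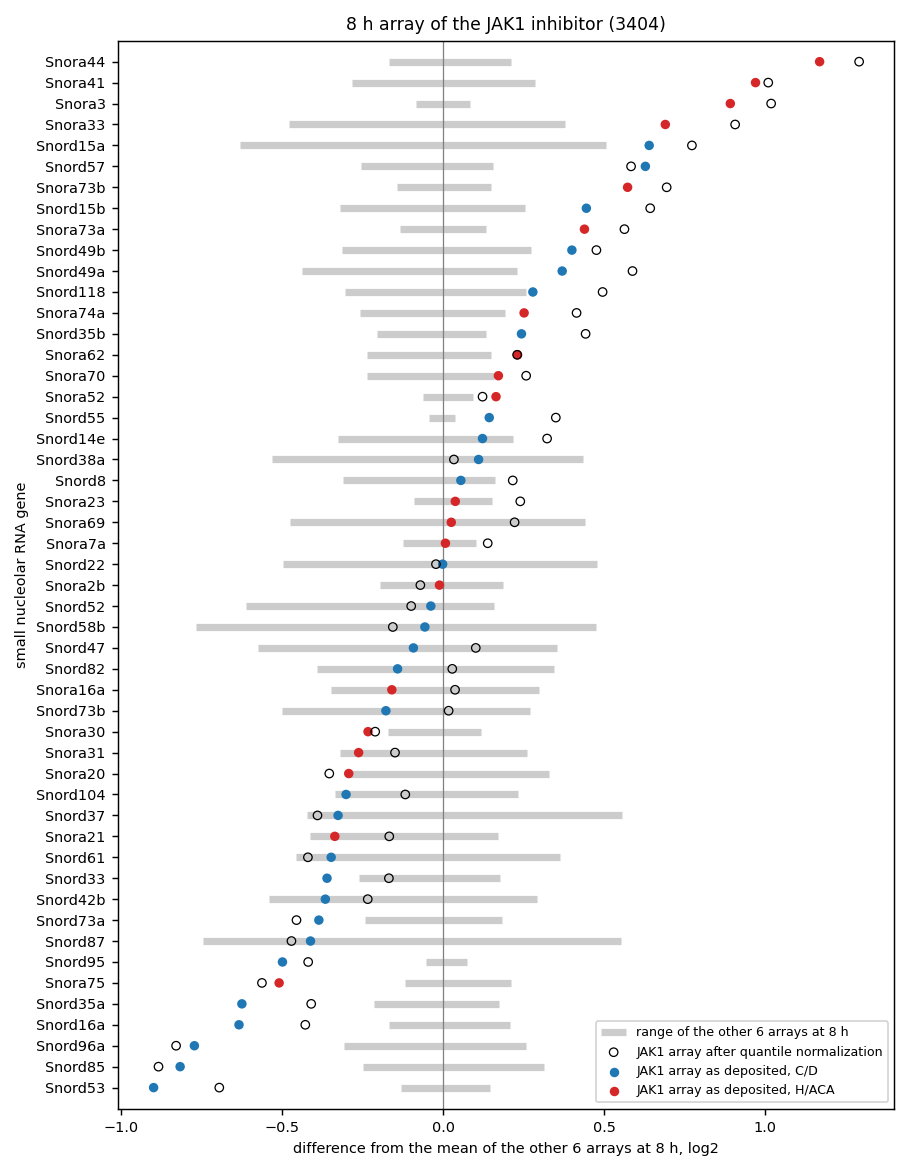
Difference of the 8 h JAK1 array from the mean of the other 6 arrays at 8 h (x axis, log2) for each snoRNA, as deposited (filled, by class) and after quantile normalization (open circles), over the range of the other 6 (grey bars). The array lies above that range for 18 members and below it for 11 as deposited.

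The 2 h JAK1 array differed in another way. It was the lowest of 7 for 25 of the 50 members, where this held for 16.0% of all genes, and its median difference from the other 6 was -0.21, against 0.01 over all genes. Of the 25, 17 were C/D and 8 were H/ACA members, and Snord49b was the farthest down. Snord49b had 10.79 under the JAK1 inhibitor at 2 h, against 11.43, 11.72 and 11.91 under the other 6, and 12.08 at 8 h, against 11.36, 11.70 and 11.95. It was thus the lowest at 2 h and the highest at 8 h. The deviations of the JAK1 arrays at the 2 times had opposite signs for 23 members, and 7 members were lowest at 2 h and highest at 8 h. Another 8 were lowest at both times and 3 highest at both. After quantile normalization the 2 h array was still lowest for 24 members, with a median of -0.20.

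None of the other 6 inhibitors had a called member in the limma fit in either direction, while 0.0101% of all genes were called higher under JAK1/2 and 0.0354% under JAK2. Their medians over the members differed in sign. Each inhibitor was set against the mean of the other 6, so for every gene the 7 differences sum to 0. Opposite signs between inhibitors are thus partly fixed in advance, and the medians are a description. The JAK1/2 inhibitor had 40 of 50 members below the other 6, with a median of -0.17. It had 15 members at an unadjusted p under 0.05, where 1233 of all 19752 genes reached it. Its 8 h array was the lowest of 7 for 26 members, where this held for 11.3% of all genes, and the highest for 0, where this held for 24.3%. The median difference of that array was -0.24, and -0.28 after quantile normalization. In the same contrast the 12 skeletal muscle genes had a median of 0.59. The 2 of them that were called, Atp2a1 at 1.04 and Pvalb at 0.94, were the only 2 genes called for this inhibitor. The summed intensity of the 12 was 2012 on its 8 h array and 1947 on its 2 h array, against 1838 on the 8 h JAK1 array and 1114 to 1419 on the other 11. Their part in the members' values was not tested. The JAK3 inhibitors IFN.6226 and IFN.6228 had 36 and 37 members above the other inhibitors, with medians of 0.10 each. They had 9 and 11 members at an unadjusted p under 0.05, beside 604 and 1226 of all genes. At 8 h the IFN.6226 array was the highest for 14 members, where this held for 7.98% of all genes. At 2 h the IFN.6228 array was the highest for 16 members (17.8% of all genes) and the TYK2 array for 12 (12.1% of all genes). The PAN inhibitor had a median of 0.0024, with 25 members on each side and 2 at an unadjusted p under 0.05 (191 of all genes). The TYK2 inhibitor had a median of 0.04, with 6 members and 734 of all genes at an unadjusted p under 0.05. The JAK2 inhibitor had -0.03, with 1 member and 797 of all genes.

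Single members with the smallest p for each inhibitor were not called. Snora69 was at -0.46 under JAK1/2 (limma adjusted p = 0.771), Snord33 at 0.33 under TYK2, Snord35a at 0.33 under IFN.6226 (limma adjusted p = 0.545) and Snord61 at 0.58 under IFN.6228 (limma adjusted p = 0.382). Snord73a was at 0.24 under PAN and Snord82 at -0.25 under JAK2, both with a limma adjusted p of 1.00.

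**Figure D5:**
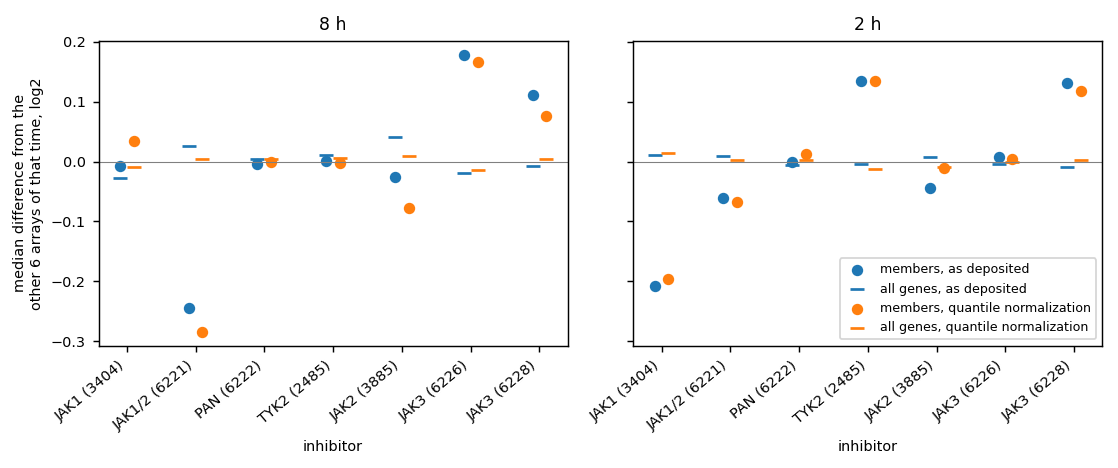
Median difference of each array from the other 6 of its time (y axis, log2) over the 50 snoRNAs (points) and over all genes (bars), as deposited and after quantile normalization, at 8 h (left) and 2 h (right). The lowest member medians as deposited are those of the JAK1/2 array at 8 h (-0.24) and the JAK1 array at 2 h (-0.21).

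The last comparison set the 4 inhibitors labelled JAK1, JAK1/2, PAN and TYK2 against the 3 labelled JAK2 or JAK3, at each time, in a limma fit over all genes. No member was called at 8 h, where 0.00% of all genes were called. An unadjusted p under 0.05 was reached by 11 members and by 3040 of all 19752 genes. The median over the members was -0.14, against -0.0042 over all genes, and 36 of 50 were lower in the JAK1 and TYK2 group. The arrays of a group did not share this. Against the other 6 arrays at 8 h, member medians were -0.24 for JAK1/2, -0.0069 for JAK1, -0.0046 for PAN and 0.0018 for TYK2. In the other group they were -0.026 for JAK2, 0.18 for IFN.6226 and 0.11 for IFN.6228. Snord61 had the smallest p at 8 h, with 4.29 ± 0.21 in the JAK1 and TYK2 group (SD, n = 4) and 4.82 ± 0.11 in the JAK2 and JAK3 group (SD, n = 3). Its difference of -0.53 was not called (limma adjusted p = 0.306), and Snord61 was among the dimmest members. Snora20 and Snord22 were at -0.40 and -0.47, with the same adjusted p. At 2 h no member was called either, where 0.430% of all genes were called lower. An unadjusted p under 0.05 was reached by 2 members and by 768 of all 19752 genes. Snord42b had 8.90 ± 0.03 in the JAK1 and TYK2 group and 8.69 ± 0.04 in the JAK2 and JAK3 group, a difference of 0.21 (limma adjusted p = 0.561). The 2 h difference of Snord104 was -0.26 and that of Snord15b was -0.22, both with a limma adjusted p of 0.997.

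After the mean of each time was taken out, the members varied together more than genes at large. The mean correlation over all pairs of members across the 14 arrays was 0.17, against 0.02 over all gene pairs. It was 0.24 within the C/D members, 0.15 within the H/ACA members and 0.13 between the classes. Without the 8 h JAK1 array these 4 values were 0.20 for all members, 0.26, 0.13 and 0.18. The all-gene value was not matched for brightness, and the members were brighter, at a median level of 8.87 against 6.81. All pairs share the same arrays, and the values are a description.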

How the data were processed

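Each array measured biotin-labelled total RNA of activated mouse CD4+ T cells. The deposited intensity values were made by the authors with Affymetrix Power Tools and RMA, per the submitters' processing notes. Their versions, background step and annotation are not given in the sources used here. RMA sets arrays to one distribution of probe values before summarising, and the probe set values still differed in upper quartile. The intensities were on a linear scale and log2 was taken here with no offset. Array median intensity ran from 109 to 121, and the number of arrays limits the precision, since depth has no meaning here.

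Probe sets were named with the platform annotation. Of 24922 probe sets, 21425 had 1 symbol, 1399 several and 2098 none, and 21347 matched RefSeq (GRCm38.p6) by identifier with 0 symbols changed. Strand is not used in naming hosts, and a probe set over an intron may also read host pre-mRNA. limma 3.58.1 in R 4.3.3 fitted inhibitor and time (6 residual degrees of freedom), or 4 inhibitors against 3 at each time (5), with a variance trend, and was tested on simulated data. Exact tests listed every sign assignment in Python 3.11.15 with numpy 2.4.6.

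The members, gene lists and tests were chosen with earlier results of these data known. Members named in the text were the 8 largest called changes per direction with 1 sign under all inhibitors, the 8 largest called for the JAK1 inhibitor, the 3 for each other inhibitor, and 5 for the classes. Where none was called, those of smallest p were named, 1 for each other inhibitor and 3 for each class comparison. Members of known role, the 5 brightest of each class, and hosts of named members were also named. Other names were chosen after their values were seen. Alternatives were quantile, loess, median and upper-quartile scaling, that JAK1 array rescaled or left out, a 40th-percentile filter, an offset of 50, the mean of probe sets, other variance moderation, each inhibitor left out, and no inhibitor block.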

Additional observations from a re-analysis of the deposited data

Results flagged for a closer look

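Within each time the 7 arrays of the named snoRNAs were searched for a single array far from the rest, by the gap to its nearest neighbour over the whole range (Dixon's test at 95%). Of 58 sets of 7 arrays tested, 6 passed, and chance passes about 1 in 20. The sets are those of 29 members, 7 of which were named because the JAK1 comparison called them, so these counts are not read against that rate. Over all 50 members 12 of 100 sets passed, 6 of them on the 8 h JAK1 array and 3 on the 2 h JAK1 array, and sets of different members share their arrays. Among the named members the 8 h JAK1 array accounted for 4 of the 6. It was the highest for Snora44 at 10.93, for Snora3 at 11.19 and for Snora73b at 11.32, and the lowest for Snord95 at 7.50. The 2 h JAK1 array was the highest for Snora21 at 9.54. The 2 h array of the JAK3 inhibitor IFN.6228 was the highest for Snord61 at 5.25, a dim probe set.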

How the results depend on the processing

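The count of members lower at 8 h stayed within 1.5 times of 27 under every alternative run, and the median change stayed negative, between -0.31 and -0.19. Leaving out 1 inhibitor at a time gave 21 to 31 lower and 1 to 2 higher members, 22 to 32 called in all, and medians from -0.28 to -0.25. The higher count, 1 as reported, was 2 after quantile normalization, cyclic loess, rescaling of the 8 h JAK1 array or the 40th-percentile filter, and 3 after upper-quartile centring. The labels number every sample alike, so pairing can only be by inhibitor. Without that block the fit called 24 members (23 lower, 1 higher), against 28 with it, and Snora7a, Snord38a, Snord53 and Snord87 were lost. For the JAK1 inhibitor, leaving out another inhibitor gave 4 to 10 called members, of which 2 to 8 lower and 2 higher. Without its 8 h array the contrast rests on the 2 h JAK1 array alone, and the median over the members was -0.21. The lower count was 3 after upper-quartile centring, and the higher count was 4 after quantile normalization or loess and 6 after upper-quartile centring. Without the IFN.6228 arrays there were 2 lower members, without IFN.2485 or IFN.6226 there were 3, and without IFN.6221 there were 8. Class comparisons had 0 called members throughout, except that leaving out 1 inhibitor gave 0 to 1 at 2 h, the 1 without IFN.2485. The median of the 8 h JAK1 array, -0.0069 as deposited, was 0.035 after quantile normalization, 0.048 after loess, 0.20 after upper-quartile centring and 0.042 when that array was rescaled. It ran from -0.061 to 0.029 when 1 of the other inhibitors was left out. The cause of these shifts was not tested. Of the alternatives for single named members, 287 of 548 time differences kept a call, 15 lost it, 7 gained one and 239 stayed uncalled. For the JAK1 inhibitor, 98 of 490 kept a call, 20 lost it, 10 gained one and 362 stayed uncalled. The sign changed in 22 of the time values, from 6 members, and in 21 of the JAK1 values, from 11 members, and 0 of these were called before or after. Snora7a, called lower by 0.12 log2 units as reported, lost its call under most alternatives. The 6 residual degrees of freedom and 1 array per inhibitor and time limit what small differences could be called.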
